A study of Mus musculus with 3 samples.

Results

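Serum RNA extracted with the mirVana PARIS kit, which combines organic extraction with a glass-fibre filter, was measured on 1 array of a series of 3 arrays. Every miRNA on that array was taken from its non-control spots, which gave 1881 mouse miRNAs on 4415 probes and 56430 spots. A miRNA counted as detected when at least 1 of its probes was flagged well above background by the scanner software in over 0.5 of its spots, outlier spots left out. By that rule 134 of the 1881 miRNAs (7.12%) were detected in the mirVana PARIS extract. The serum came from male C57BL/6NJcl mice aged 8 weeks, was separated from blood in a centrifuge run of 3 min, and was used at 200 µL per extract. The other arrays held serum of the same strain, sex and age extracted with the miRNeasy serum/plasma advanced kit, and RNA from the aqueous layer of serum and 700 µL of QIAzol collected on exoRNeasy midi kit columns, which the labels describe as a way to gauge all RNA in serum. The Cy3 labelling started from 1.8 ng of RNA for each of them. The labels name no treatment or genetic change. They do not give the number of mice, and whether the extracts came from the same pool of serum is not stated.

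As each kit had 1 array, no replicate of any extract exists, so no test was made and no p-value is given. Errors are standard deviations (SD) or standard errors (SE) between replicate spots on the same array. They hold the error of the hybridisation and scan, while extractions and mice were not repeated. The software combines the probes of a miRNA into a total gene signal, in arbitrary units, and a share is that signal as a percentage of the sum over all miRNAs on the same array. Because labelling and hybridisation differ between probes, ranks and shares order hybridisation signal and are not copy numbers.

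MicroRNAs are short RNAs cut from hairpin precursors, and they guide Argonaute proteins to messenger RNAs mainly through bases 2 to 8, the seed. Serum holds miRNAs shed or released by blood cells, vessel wall and organs, bound to proteins or packed in vesicles and lipoproteins. Several of them are made almost wholly by 1 cell type, such as miR-451a and miR-144 by red cell precursors, miR-223 by myeloid cells, miR-122 by hepatocytes and miR-1 and miR-133 by muscle. In serum, a larger amount of a source cell's material and more of a miRNA in each source cell cannot be told apart.

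The sequences that the results turn on are shown first, 5′ to 3′, from RefSeq on build GRCm38.p6, with the seed in capitals. RefSeq held a mature sequence for 115 of the 134 detected miRNAs and for 1608 of the 1881 on the array. The first set is the erythroid locus on chromosome 11, plus strand, which carried most of the signal: miR-451a lies at chr11:78073186-78073207, miR-144-3p at chr11:78073047-78073066 and miR-144-5p at chr11:78073010-78073032.
miR-451a: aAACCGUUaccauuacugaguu
miR-144-3p: uACAGUAUagaugauguacu
miR-144-5p: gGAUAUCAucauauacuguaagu
The second set is the seed family of largest summed signal, of which 6 members were detected.
miR-16-5p: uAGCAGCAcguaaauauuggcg
miR-15b-5p: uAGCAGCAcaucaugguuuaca
miR-15a-5p: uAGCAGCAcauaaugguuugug
miR-195a-5p: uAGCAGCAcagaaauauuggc
miR-497a-5p: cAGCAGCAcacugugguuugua
miR-322-5p: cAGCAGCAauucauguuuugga
The third set holds bright miRNAs with high catalogue numbers, and dim ones that share a run of letters (miR-3968) or a seed (miR-3473e) with them.
miR-3963: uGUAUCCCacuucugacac
miR-5100: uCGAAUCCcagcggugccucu
miR-3968: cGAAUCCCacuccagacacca
miR-3473b: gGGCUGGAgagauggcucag
miR-3473e: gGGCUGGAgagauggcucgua
The last set shows 2 pairs in which a dim miRNA detected on the mirVana PARIS array only lies 1 edit (a base exchanged, gained or lost) from a brighter one.
miR-27a-3p: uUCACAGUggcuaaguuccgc
miR-27b-3p: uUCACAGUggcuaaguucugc
miR-107-3p: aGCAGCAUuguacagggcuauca
miR-103-3p: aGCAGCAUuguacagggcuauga

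The summed total gene signal was 11810 in the mirVana PARIS extract, 5499 with exoRNeasy and 3388 with miRNeasy advanced. Negative-control spots averaged 4.90 ± 2.53, 5.26 ± 3.53 and 4.88 ± 2.65 (SD between spots) in that order. Their means lay close together, and their spread was widest on exoRNeasy. No spot was saturated on any array. The lowest mean signal of a detected probe was 8.81 for mirVana PARIS, 21.6 for exoRNeasy and 12.2 for miRNeasy advanced, so the exoRNeasy array called a probe detected only at brighter levels. The other arrays detected 83 (4.41%) and 71 (3.77%) miRNAs, for exoRNeasy and miRNeasy advanced.

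One miRNA dominated the mirVana PARIS extract. miR-451a, an erythroid miRNA cut by Argonaute 2 without Dicer, had a mean spot signal of 18052 ± 874 (SD, 15 spots) and a total gene signal of 6216. It held 52.6% ± 0.244 (SE between spots) of all miRNA signal, 12.7 times the total of the second miRNA. The same miRNA ranked first on the other arrays, with 37.5% on exoRNeasy and 48.4% on miRNeasy advanced. Within an array, its spot signal over that of miR-23a-3p, a miRNA often used as a haemolysis reference because red cells hold little of it, was 4.40 on the log2 scale here, 3.56 on exoRNeasy and 4.16 on miRNeasy advanced. These values set 2 probes side by side and are useful only between arrays. Without miR-451a the summed signal was 5594 here, 3436 on exoRNeasy and 1749 on miRNeasy advanced, so the array with the brightest miR-451a was also the brightest without it.

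Beyond miR-451a the signal was spread over many miRNAs. The 10 brightest held 73.8% of the signal and the 20 brightest 83.2%. A single miRNA was needed for 50% of the signal, 11 for 75%, 34 for 90%, 55 for 95% and 111 for 99%. Shares of at least 1% were reached by 13 miRNAs, and 68 of the 134 detected miRNAs lay under 0.1% and together held 3.24%. Replicate spots of a detected miRNA's brightest probe had a median coefficient of variation of 9.80%, and from 3.13% to 8.23% among the 20 brightest.

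**Figure D1:**
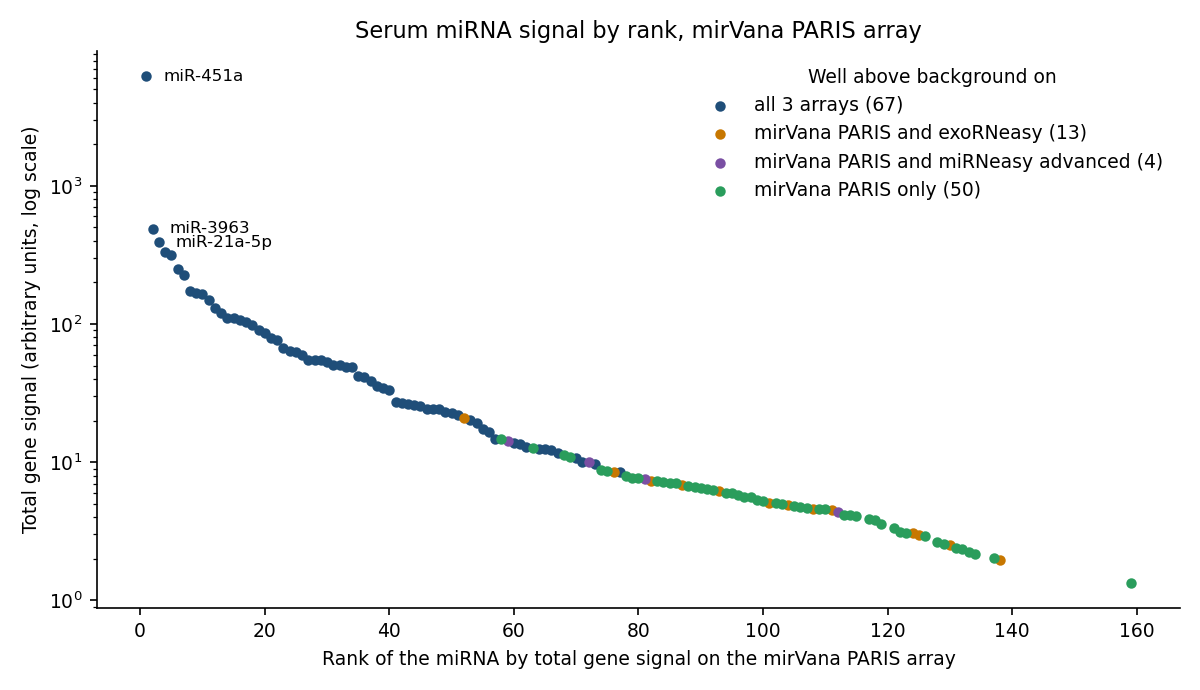
Total gene signal (vertical, arbitrary units, log scale) of the 134 detected miRNAs against their rank among all miRNAs on the mirVana PARIS array (horizontal), coloured by the arrays on which each was well above background. miR-451a stands at 6216 above miR-3963 and miR-21a-5p, and the 50 miRNAs detected on this array only lie at rank 58 and below.

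After miR-451a came miR-3963 with 4.13% ± 0.0463 of the signal, miR-21a-5p with 3.30% ± 0.0475 and miR-16-5p with 2.79% ± 0.0312 (SE between spots). miR-21a-5p is a widely expressed miRNA of immune and stromal cells, and miR-16-5p is abundant in red cells. miR-3473b (2.66%), the myeloid miR-223-3p (2.10%), miR-23a-3p (1.92%), miR-22-3p (1.48%), miR-29a-3p (1.41%) and miR-5100 (1.39%) completed the 10 brightest. Places 11 to 20 went to miR-709, miR-15b-5p, miR-106b-5p, miR-15a-5p, miR-24-3p, miR-19b-3p, miR-144-3p, miR-1a-3p, miR-27a-3p and miR-1224-5p, with shares from 1.27% for miR-709 to 0.725% for miR-1224-5p. Adjacent places in this order were often close: miR-15a-5p held 0.937% ± 0.00948 and miR-24-3p 0.934% ± 0.00835, a difference within the spot error.

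Of the 20 brightest miRNAs here, 17 were among the 20 brightest on exoRNeasy and the same number on miRNeasy advanced. Of the 10 brightest, 9 were shared with each. The 3 that the other arrays lacked among their 20 brightest were the same on both: miR-106b-5p and miR-144-3p, which red cells express, and the muscle miRNA miR-1a-3p. For miR-144-3p, whose hairpin adjoins that of miR-451a, the spot signal was 257 ± 14.2 (SD) here, 43.4 ± 3.80 on exoRNeasy and 44.1 ± 3.76 on miRNeasy advanced. It ranked 17 here, 46 on exoRNeasy and 26 on miRNeasy advanced. Its spot signal here thus stood well apart from both other arrays, which lay close together in spot signal but not in rank. For miR-106b-5p the spot signal was 375 ± 24.5 here, 105 ± 7.41 on exoRNeasy and 66.2 ± 7.08 on miRNeasy advanced, and it ranked 13, 28 and 22. For miR-1a-3p it was 408 ± 33.6, 157 ± 12.9 and 88.2 ± 6.63 in the same order, and the ranks were 18, 27 and 24. In all 3 miRNAs the spots on the mirVana PARIS array lay far above those on the other arrays, while that array was also brighter as a whole.

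**Figure D2:**
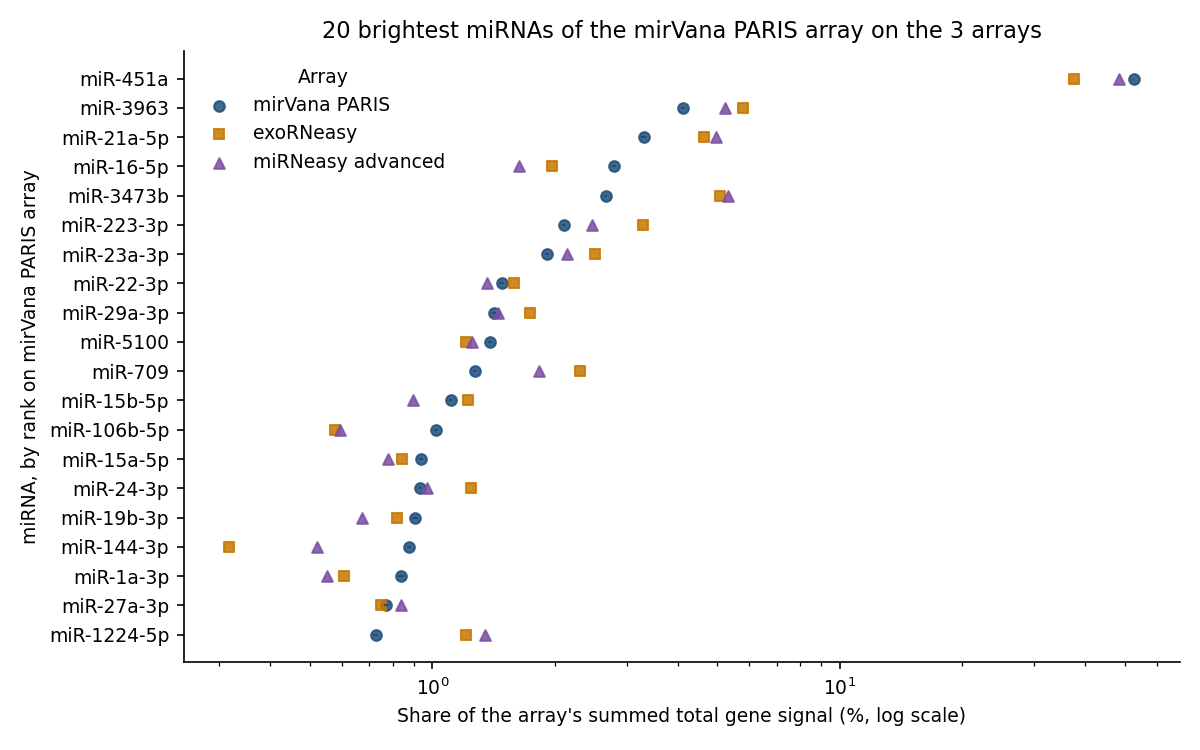
Share of each array's summed total gene signal (horizontal, %, log scale) for the 20 brightest miRNAs of the mirVana PARIS array (vertical, by rank), with circles for mirVana PARIS and bars for the standard error between its spots. miR-144-3p held 0.877% here against 0.317% on exoRNeasy and 0.521% on miRNeasy advanced, while miR-3473b held 2.66% here against 5.07% and 5.30%.

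The detected miRNAs were set against 10 lists of miRNAs known from blood cells and tissues. These lists held 87 miRNAs on the array, of which 42 were detected, and together they carried 71.0% of the signal. Among all miRNAs on the array 7.12% were detected, the base rate for the list counts below. The median rank of all 134 detected miRNAs was 67.5, the yardstick for the list medians below. A list's share also moves with miR-451a, which alone took 52.6% of the total.

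By total gene signal the erythroid list held most of the signal, nearly all of it as miR-451a. Its other members held 1.38%. Of the 6 erythroid miRNAs on the array (miR-451a, both arms of miR-144, and the miR-486 arms), 4 were detected, with a median rank of 22.5 and 54.0% of the signal. miR-486a-5p, made from the Ank1 locus in red cells and muscle, ranked 28 with a spot signal of 165 ± 10.6 (SD), against 66.6 ± 3.41 on exoRNeasy and 31.7 ± 2.99 on miRNeasy advanced. The miR-486a-3p and miR-486b-3p arms were at background, with spot signals of 4.17 ± 2.89 and 2.17 ± 2.46. A second list of 18 miRNAs abundant in red cells had 12 detected, a median rank of 27.5 and 8.74% of the signal. It was led by miR-16-5p, miR-15b-5p, miR-106b-5p, miR-15a-5p and miR-19b-3p. With miR-451a left out of the total, this list held 18.4% of the signal here, 11.9% on exoRNeasy and 11.6% on miRNeasy advanced. miR-16-5p itself had a spot signal of 1262 ± 59.3 here, 431 ± 14.1 on exoRNeasy and 218 ± 9.43 on miRNeasy advanced, and it ranked 4 here and 8 on both others. The members not detected were miR-17-5p, miR-363-3p, miR-484 and the linked miR-182-5p, miR-183-5p and miR-96-5p.

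Leukocyte miRNAs followed with 6 of 9 detected, a median rank of 54 and 2.84% of the signal. miR-223-3p, the neutrophil and monocyte miRNA that leads this list, had a spot signal of 905 ± 52.3 (SD) here, 685 ± 43.0 on exoRNeasy and 318 ± 21.1 on miRNeasy advanced. Its share nevertheless was lower here, at 2.10%, than on exoRNeasy, at 3.29%, or miRNeasy advanced, at 2.46%. These shares also move with miR-451a. With miR-451a left out of the total, the leukocyte list held 5.99% here, 6.55% on exoRNeasy and 6.36% on miRNeasy advanced. The pan-haematopoietic miR-142a-3p held 0.292%, the lymphoid miR-342-3p 0.206% and miR-146a-5p, a target of NF-kB signalling, 0.115%. miR-150-5p of mature lymphocytes was dim, with a spot signal of 26.9 ± 1.15 and 0.0600% of the signal. miR-155-5p and miR-181a-5p, both of activated or developing lymphocytes, and miR-223-5p were at background.

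Endothelial and platelet miRNAs had 4 of 8 detected, a median rank of 39.5 and 1.60% of the signal. miR-24-3p, which is not restricted to these cells, held 0.934%. The endothelial miR-126a-3p had a spot signal of 142 ± 10.4 (SD) here, 133 ± 9.27 on exoRNeasy and 75.7 ± 6.28 on miRNeasy advanced. Its spots here and on exoRNeasy overlapped in spread, although the summed signal of exoRNeasy was lower, and its share was 0.416% here and 0.818% there. miR-199a-3p held 0.206% and miR-221-3p 0.0261%. The platelet-rich miR-191-5p, with 7 spots, miR-126a-5p and miR-151-5p were at background, and miR-222-3p fell short of the rule at 8.04 ± 2.61.

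Organ miRNAs were detected for liver and muscle. For liver and gut 4 of 8 were detected, with a median rank of 35.5 and 1.55% of the signal. The hepatocyte miRNA miR-122-5p ranked 23 with a spot signal of 209 ± 17.6 (SD) here, 122 ± 8.34 on exoRNeasy and 34.7 ± 2.47 on miRNeasy advanced. miR-192-5p, of liver and intestine, ranked 21 with 274 ± 22.6, 209 ± 11.3 and 68.2 ± 7.88 in the same order. Its seed partner miR-215-5p held 0.206% and the liver-rich miR-148a-3p 0.0747%. Of the undetected members, miR-122-3p and miR-802-5p were at background. miR-193b-3p at 6.97 ± 1.88 and miR-194-5p at 10.1 ± 2.72 fell short of the rule. For heart and skeletal muscle 3 of 8 were detected, at a median rank of 24 and 1.72% of the signal. miR-133b-3p had a spot signal of 260 ± 15.7 here, 91.3 ± 4.71 on exoRNeasy and 29.4 ± 2.94 on miRNeasy advanced, and miR-133a-3p 173 ± 8.39, 62.9 ± 4.91 and 19.8 ± 2.48. The heart myosin miRNAs miR-208a-3p and miR-208b-3p, the skeletal muscle miRNA miR-206-3p, and miR-499-5p and miR-133a-5p were at background, with spot signals of 5.56 or less.

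The brain, pancreas, epithelial and stromal lists each held under 1% of the signal. Of 11 brain miRNAs 1 was detected (9.09%, against 7.12% of all miRNAs on the array). This was miR-128-3p, at rank 119 and 0.0304% of the signal, with a spot signal of 16.9 ± 1.86 (SD). The neuronal miR-124-3p and both arms of miR-9 were at -3.77, -1.08 and -2.77 after background subtraction. Of 4 pancreatic miRNAs, the islet and neuroendocrine miR-375-3p was detected, at rank 79 with 25.3 ± 2.78 here, 21.4 ± 3.02 on exoRNeasy and 6.69 ± 2.89 on miRNeasy advanced. The spots of mirVana PARIS and exoRNeasy overlapped in spread, yet the rule called miR-375-3p detected on the first only. Epithelial miRNAs had 4 of 7 detected, with a median rank of 118.5 and 0.177% of the signal. Among them miR-200b-3p was brighter on exoRNeasy, at 57.8 ± 4.68, than here, at 24.04 ± 2.70, and lowest on miRNeasy advanced at 8.61 ± 2.67. Fibroblast and smooth muscle miRNAs had 3 of 8 detected and 0.298% of the signal, most of it miR-125b-5p with 0.216%. miR-143-3p and miR-145a-5p, the linked smooth muscle pair, were at background. None of 38 miRNAs of the imprinted Dlk1-Dio3 cluster was detected, against 7.12% of all miRNAs on the array. The list summed to 0.0145% of the signal, all of it from miR-494-3p. That miRNA fell short of the rule at 8.08 ± 3.64, with 33.3% of spots above background. Signal was also computed from the pixel medians of each miRNA's brightest probe, uncorrected or after normexp background correction. The uncorrected setting covered detected miRNAs, while normexp covered all that the software itself flagged and added 50 units to every spot. Shares this small changed with the way signal was computed, and the part of the background correction alone was not tested. From uncorrected pixel medians, and then after normexp, they were 0.145% and 0.163% for the brain list, 0.165% and 0.180% for pancreas, 0.568% and 0.931% for epithelium, and 0.661% and 0.977% for fibroblast and smooth muscle.

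**Figure D3:**
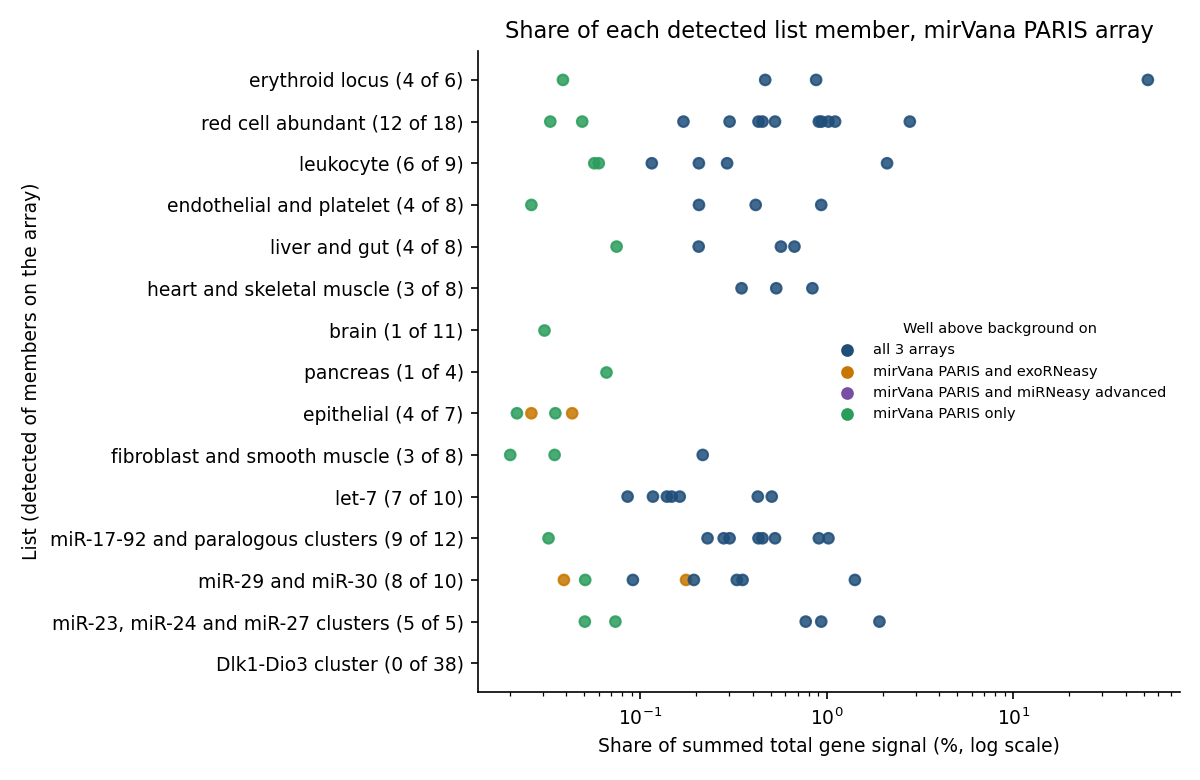
Share of the summed total gene signal on the mirVana PARIS array (horizontal, %, log scale) for every detected member of the 15 lists (vertical, with detected members of those on the array), 1 point per miRNA, coloured by the arrays on which it was detected. The single brain and pancreas points lie at 0.0304% and 0.0653%, and miR-451a stands alone at 52.6%.

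Among miRNAs of no single source, the let-7 family, which represses growth genes, had 7 of 10 detected, a median rank of 55 and 1.59% of the signal. The same family held 3.53% on exoRNeasy and 2.65% on miRNeasy advanced. let-7i-5p was brightest with 0.507% ± 0.00964 (SE between spots) of the signal, followed by let-7g-5p with 0.427% ± 0.00742. For let-7a-5p the spot signal was 55.9 ± 4.28 (SD) here, 91.9 ± 5.90 on exoRNeasy and 33.7 ± 3.14 on miRNeasy advanced, and for let-7b-5p 52.2 ± 5.07, 89.5 ± 5.27 and 38.4 ± 3.44. In 5 of the 7 let-7 miRNAs the spot signal was lower here than on exoRNeasy, against 28 of all 134 detected miRNAs. Among those 28 were also miR-125b-5p, miR-342-3p, miR-466i-5p, miR-26a-5p, miR-30c-5p, miR-200a-3p and miR-200b-3p. The widest gap among the miRNAs named here was that of miR-466i-5p, at 31.0 ± 3.85 here and 107 ± 8.40 on exoRNeasy. Only miR-1249-3p was lower here than on miRNeasy advanced.

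The growth-linked miR-17-92 cluster and its paralogues had 9 of 12 detected, a median rank of 31 and 4.18% of the signal. It was led by miR-106b-5p, miR-19b-3p, miR-25-3p, miR-92a-3p and miR-20a-5p, several of which are also in the red cell list. Within the chromosome 14 cluster 5 of 6 hairpins gave a detected miRNA, over a 28.1-fold range of total signal from miR-19b-3p down to miR-18a-5p, and miR-17-5p was at background. miR-29 and miR-30, which repress collagen and other genes, had 8 of 10 detected and 2.65% of the signal, led by miR-29a-3p and miR-30a-5p. All 5 miRNAs of the miR-23, miR-24 and miR-27 clusters were detected, with 3.74%. There the members of the chromosome 8 cluster were bright, with miR-23a-3p at 854 ± 38.1 and miR-27a-3p at 324 ± 18.1. Their counterparts of chromosome 13 were dim, with miR-23b-3p at 28.1 ± 1.47 and miR-27b-3p at 41.0 ± 3.57. miR-24-3p comes from both clusters.

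Signal was uneven within hairpin clusters, taken as hairpins within 10000 bases on 1 strand. The miR-144 and miR-451a cluster held 53.5% of the signal, and its members spanned a 1366-fold range of total gene signal, from 6216 for miR-451a to 4.55 for miR-144-5p. Members of the miR-15b and miR-16-2 cluster on chromosome 3 differed 2.52-fold, those of the miR-23a cluster 2.48-fold, and those of the miR-25, miR-93 and miR-106b cluster 3.39-fold. The total gene signals of miR-195a-5p and miR-497a-5p, from neighbouring hairpins on chromosome 11, were within 1.01-fold. A miRNA encoded in several places, such as miR-16-5p, miR-24-3p, miR-19b-3p or miR-92a-3p, counts in each of its clusters, since its copies share 1 sequence.

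**Figure D4:**
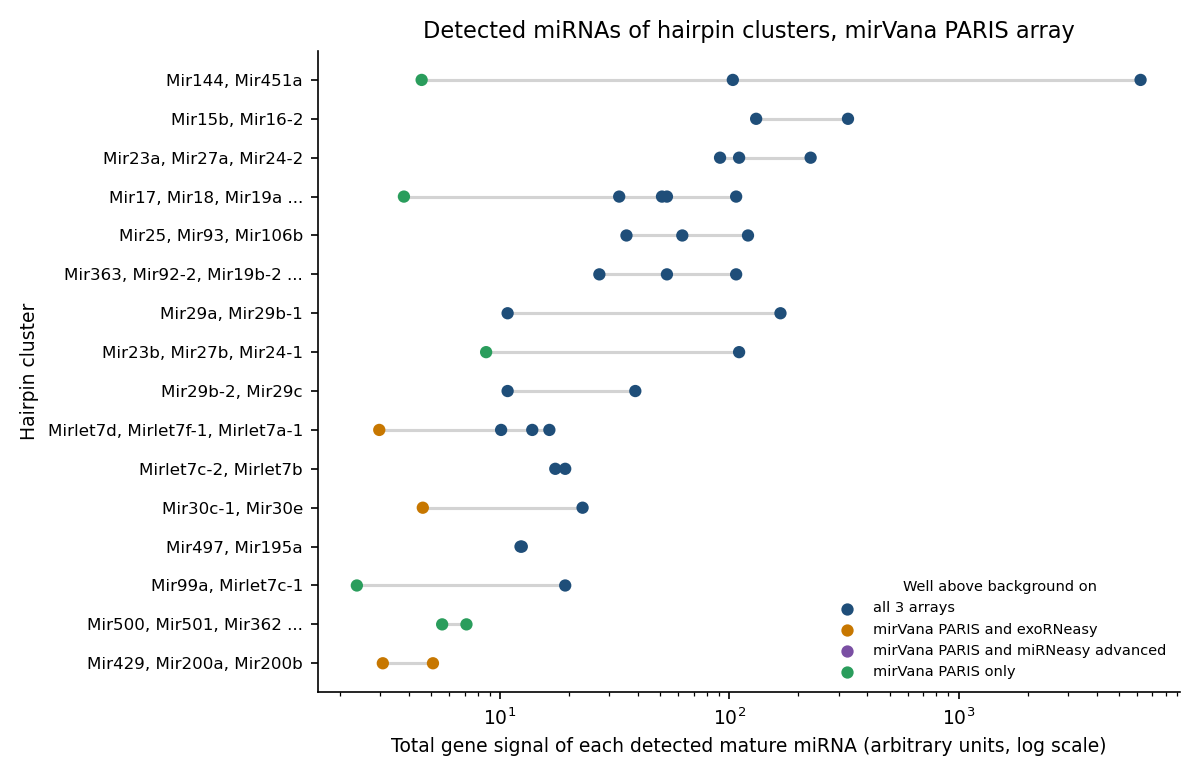
Total gene signal on the mirVana PARIS array (horizontal, arbitrary units, log scale) of each detected mature miRNA in the 16 hairpin clusters with at least 2 detected miRNAs (vertical, named by their first hairpins), 1 point per miRNA and a grey line over the range. The top cluster runs from 4.55 for miR-144-5p to 6216 for miR-451a, and the miR-497 and miR-195a points coincide.

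Of miRNAs named for an arm, 62 of 775 on the 5p side (8%) and 47 of 785 on the 3p side (5.99%) were detected. Among all miRNAs on the array it was 7.12%. With catalogue numbers of 1000 and up, 13 of 411 on the 5p side and 2 of 411 on the 3p side were detected. Below 1000 it was 49 of 364 and 45 of 374. The arms carried 17.9% and 17.4% of the signal. Under the looser positive-and-significant flag of the software the order turned, with 125 on the 5p side and 167 on the 3p side. The 321 miRNAs named without an arm held 64.7%, mostly through miR-451a, and 25 of them were detected. Both arms were on the array for 723 hairpins. In 82 of these 1 arm was detected, and in 6 both were. miR-144-3p exceeded miR-144-5p 22.8-fold in total gene signal, miR-142a-3p exceeded miR-142a-5p 5.15-fold and miR-140-3p exceeded miR-140-5p 2.11-fold. The 5p arm was the brighter one for miR-150 (5.25-fold), let-7d (3.40-fold) and miR-574 (1.16-fold). The arms are read by different probes, so a ratio also holds the difference between probes. For miR-574 the order was turned in the spot signal of the brightest probe, at 11.8 ± 3.50 (SD) for the 5p arm and 21.8 ± 2.48 for the 3p arm.

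Grouping by seed gave 87 seeds among the 115 detected miRNAs with a sequence. In 14 seeds at least 2 miRNAs were detected, 42 in all, with 18.7% of the signal. The AGCAGCA seed of miR-15 and miR-16 was the largest such family, with 6 of its 10 array members detected, 5.10% of the signal here, 4.23% on exoRNeasy and 3.55% on miRNeasy advanced. miR-16-5p gave 54.6% of that family. The GGCUGGA seed of miR-3473b and miR-3473e held 2.70%, of which miR-3473b gave 98.5%. The AAAGUGC seed (miR-106b-5p, miR-20a-5p, miR-93-5p and miR-20b-5p) held 1.98%, the AGCACCA seed of miR-29 1.84%, the GAGGUAG seed of let-7 1.59% and the GUGCAAA seed of miR-19 1.19%. The AUUGCAC seed of miR-25-3p and miR-92a-3p held 0.980% and the UGACCUA seed of miR-192-5p and miR-215-5p 0.877%. Near-identical members can hybridise to each other's probes. Among detected miRNAs 43 pairs lay within 4 edits, such as miR-29a-3p and miR-29c-3p at 1 edit, so the split of signal within a family is uncertain.

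miRNAs with catalogue numbers of 1000 and up, given late and mostly from deep sequencing, made up 1062 of the array's miRNAs. Of these 35 were detected (3.30%), against 99 of the 819 with lower numbers (12.1%). They held 12.4% of the signal here, 19.5% on exoRNeasy and 17.7% on miRNeasy advanced, and 4 of them were among the 20 brightest: miR-3963, miR-3473b, miR-5100 and miR-1224-5p. miR-3963 had a spot signal of 1842 ± 89.5 (SD) here, 1189 ± 51.9 on exoRNeasy and 670 ± 44.9 on miRNeasy advanced. For miR-3473b it was 833 ± 31.8, 742 ± 20.6 and 491 ± 16.8, so it stood out less from the other arrays than miR-16-5p or miR-451a did. Runs of letters that these sequences share were searched after the bright ones had been seen, in the printed strand only, as RNA. AUCCCA stands in 7 of the 1608 sequences (0.435%), and 3 of those 7 were detected: miR-3963, miR-5100 and miR-3968, with 5.54% of the signal. GAGAUG stands in 18 (1.12%), and 5 were detected, namely miR-3473b, miR-5128, miR-3473f, miR-3473a and miR-3473e, with 3.10%. GGGG stands in 182 of the 1608 (11.3%), in 18 of the 115 detected (15.7%) and in 17 of the 32 detected late-numbered miRNAs that have a sequence (53.1%), against 134 of 925 late-numbered ones overall (14.5%). A match describes the letters and says nothing of origin or binding. By GC content the detected miRNAs had a median of 47.8% and the undetected ones 52.4%. The detected miRNAs were mixed in this, with a median of 64.3% for numbers of 1000 and up and 43.5% for lower numbers.

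Most of the miRNAs called on the mirVana PARIS array but not on the others were dim. Of the 134, 67 were detected on all 3 arrays and held 96.2% of the signal, 13 on mirVana PARIS and exoRNeasy (0.671%), and 4 on mirVana PARIS and miRNeasy advanced (0.307%). The remaining 50, which are 2.66% of the array's miRNAs, passed the rule with mirVana PARIS alone and held 2.36% of its signal. Computed from the pixel medians of each miRNA's brightest probe, that share was 7.66% without background correction. It was 8.48% after normexp background correction of those medians, which also added 50 units to every spot. Both settings thus differ from the total gene signal in more than the background correction. The 50 ranked from 58 to 159. Their spot signals ran from 9.56 to 41.0 with a median of 19.4, where the other 84 detected miRNAs had a median of 97.6. The same probes had medians of 11.0 on exoRNeasy and 5.45 on miRNeasy advanced. The rule itself favours a higher signal here for these 50, which was found for 44 against exoRNeasy and 50 against miRNeasy advanced. The other 84 detected miRNAs had 62 and 83 higher here, so nearly all detected miRNAs were brighter than on miRNeasy advanced.

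The brightest by total gene signal were miR-3473g, miR-3960, miR-101a-3p, miR-378d, miR-148a-3p, miR-27b-3p, miR-378b, miR-375-3p, miR-7082-5p and miR-301a-3p. miR-101a-3p, a repressor of the methyltransferase Ezh2, had a spot signal of 27.5 ± 2.56 (SD) here, 0.648 ± 1.31 on exoRNeasy and 6.91 ± 2.16 on miRNeasy advanced. Its spots here were clear of both other arrays. miR-3960 had 32.3 ± 4.24 here, 11.46 ± 2.85 on exoRNeasy and 11.505 ± 2.35 on miRNeasy advanced, and miR-301a-3p 34.4 ± 4.94, 9.26 ± 2.19 and 8.83 ± 2.49. miR-27b-3p, at 41.0 ± 3.57 the brightest spot signal of the 50, had 19.1 ± 4.38 on exoRNeasy and 11.0 ± 1.72 on miRNeasy advanced. The 5 of lowest rank were miR-99a-5p, miR-7686-5p, miR-574-3p, miR-345-5p and miR-150-3p. Among these 5, miR-99a-5p, miR-345-5p and miR-574-3p had higher spot signals on exoRNeasy than here without being called there. They stood at 13.1 ± 3.09 against 11.2 ± 3.05, 12.2 ± 2.51 against 9.56 ± 2.30, and 23.2 ± 3.72 against 21.8 ± 2.48 in that order, and each pair overlapped in spread.

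Of the 50, 17 belonged to a list (34.0%), against 47 of the other 84 detected miRNAs (56.0%). The 17 were miR-144-5p, miR-103-3p and miR-185-5p of red cells, miR-142a-5p and miR-150-5p of leukocytes, miR-221-3p, miR-148a-3p, miR-128-3p, miR-375-3p, the epithelial miR-203-3p and miR-205-5p, the stromal miR-99a-5p and miR-10b-5p, and miR-18a-5p, miR-30b-5p, miR-23b-3p and miR-27b-3p. miR-203-3p was at 12.2 ± 2.04 (SD) and miR-205-5p at 12.8 ± 2.68. The others, besides those already named, were miR-362-3p, miR-322-5p, miR-425-5p, miR-2137, miR-130b-3p, miR-7118-5p, miR-500-3p, miR-6995-5p, miR-350-3p, miR-34a-5p, miR-7011-5p, miR-101c, miR-3473e, miR-6368, miR-6931-5p, miR-7036a-5p, miR-199b-5p, miR-2861, miR-6937-5p, miR-10a-5p, miR-3968 and miR-378a-3p. Late numbers were 15 of the 50 (30.0%), against 20 of the other 84 detected miRNAs (23.8%) and 1062 of the 1881 on the array. Of the 42 with a sequence, 9 lay within 4 edits of a brighter detected miRNA, against 18 of the 73 other detected miRNAs with a sequence. The rest of the 50, among them miR-23b-3p, miR-30b-5p, miR-199b-5p and miR-378a-3p, had no sequence and could not be compared. GGGG stood in 10 of the 42 (23.8%).

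**Figure D5:**
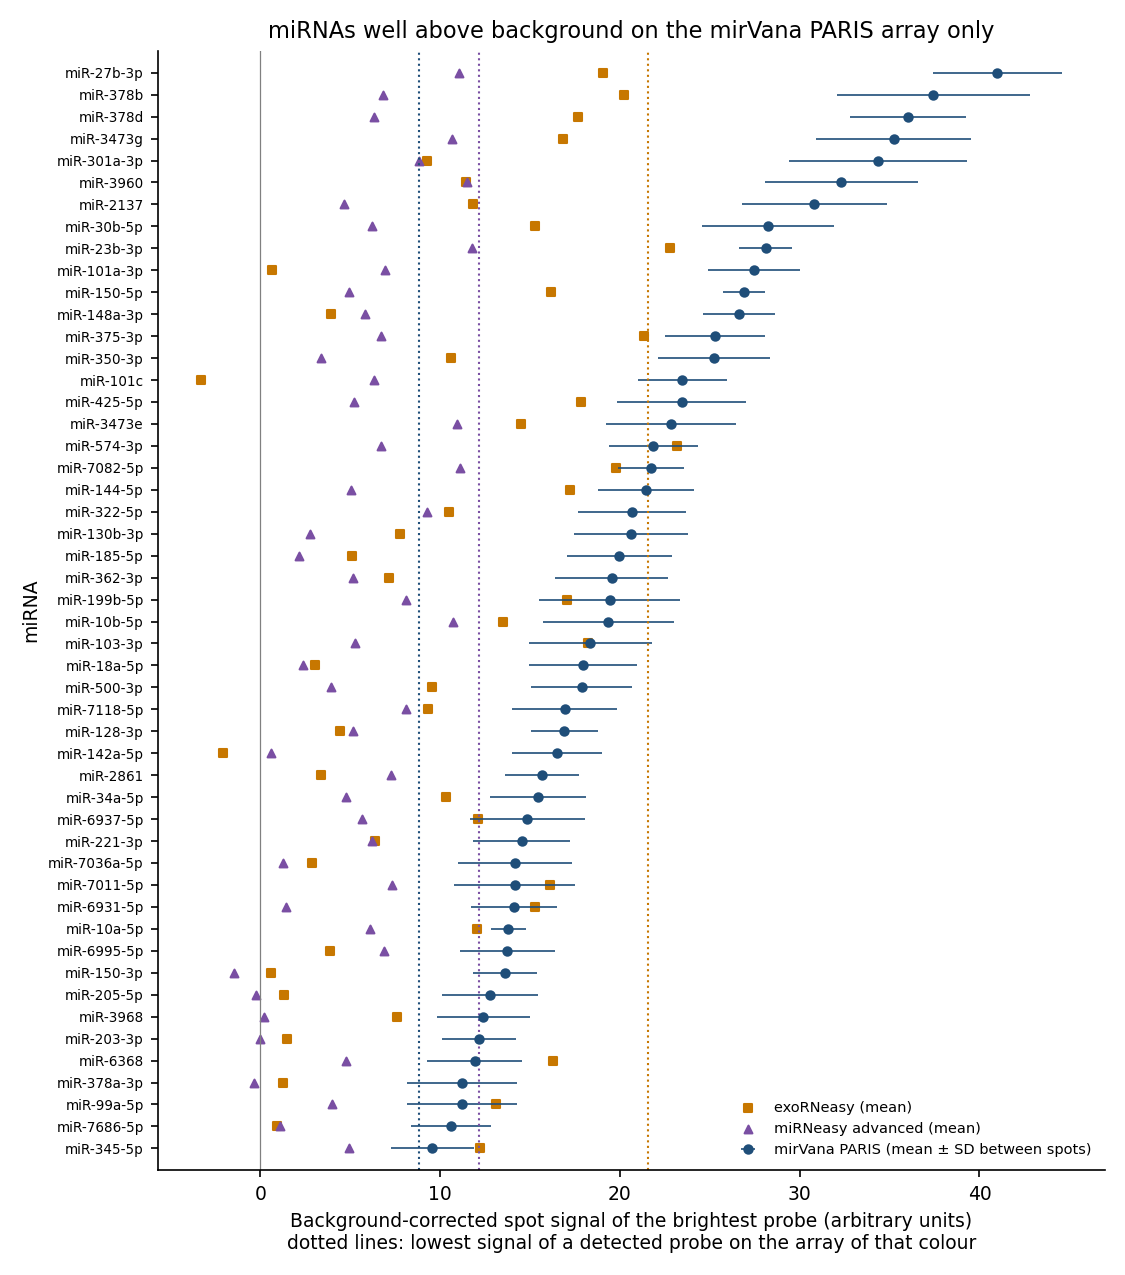
Background-corrected spot signal (horizontal, arbitrary units) of the brightest mirVana PARIS probe of each of the 50 miRNAs detected on that array only (vertical), with circles and bars for the mean and standard deviation between its spots and squares and triangles for the same probe's mean on exoRNeasy and miRNeasy advanced. Dotted lines mark the lowest signal of a detected probe, 8.81, 21.6 and 12.2 for mirVana PARIS, exoRNeasy and miRNeasy advanced, and 31 of the 50 circles lie under the exoRNeasy line.

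The calls behind these 50 were uneven in strength. No spot of the same probe was above background on exoRNeasy for 40 of them and on miRNeasy advanced for 36, and 42 had no probe above background in over 25% of its spots on either. In 13 every probe was detected, and in 37 only 1 of several, against 21 of the other 84 detected miRNAs. In 36 every spot of the called probe was above background. The spot signal of 31 lay under the lowest signal at which exoRNeasy detected any probe, of 6 under that of miRNeasy advanced, and 19 reached both. The software's own detection flag, a looser rule, was set for 18 of the 50 on exoRNeasy, 11 on miRNeasy advanced and 6 on both, and for 27 on neither. As a lower bound on the ratio between arrays, each signal was set against the higher of the other array's lowest detected level and the probe's own level there. Without scaling the bound was above 1-fold for 18 miRNAs against exoRNeasy and 43 against miRNeasy advanced, and miR-27b-3p had the largest, at least 1.90-fold and at least 3.36-fold higher. miR-27b-3p was detected with 1 of its 2 probes and lies 1 edit from the brighter miR-27a-3p. The latter stood at 324 ± 18.1 here, 151 ± 9.48 on exoRNeasy and 104 ± 5.34 on miRNeasy advanced. Whether miR-27a-3p added to the miR-27b-3p signal was not tested. For the scaled comparison the 75th percentile of the 106 commonly detected probes was subtracted from each array, which stood at 8.02, 7.05 and 6.21 (log2) for mirVana PARIS, exoRNeasy and miRNeasy advanced, and then no bound exceeded 1-fold. The array with the most calls thus also had the highest summed signal and the lowest level at which a probe was called, and their part in the calls was not tested. Negative controls stood at 4.90 ± 2.53 here, 5.26 ± 3.53 on exoRNeasy and 4.88 ± 2.65 on miRNeasy advanced (SD between spots). These arrays had 134, 83 and 71 miRNAs detected, and the part of the controls in the calls was not tested.

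At the threshold of the rule, the nearest miRNAs inside were miR-345-5p, with 53.3% of spots above background, miR-99a-5p and miR-378a-3p with 60.0%, and miR-7686-5p and miR-1249-3p with 64.3%. The nearest outside were miR-365-3p with 46.7%, and miR-429-3p, miR-194-5p, miR-7045-5p and miR-423-5p with 40.0%. Spot signals were 9.56 ± 2.30 (SD) for miR-345-5p and 9.32 ± 2.79 for miR-365-3p, on either side of the threshold and within each other's spread. The software flag alone added 27 miRNAs, which made 161 of 1881 (8.56%), and those 27 held 0.417% of the signal.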

How the data were processed

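RNA from 1 serum extract per kit was measured on Agilent mouse miRNA arrays of 1 colour. The deposited scanner files give the linear intensity of each spot after background subtraction. Per the file headers, the program was Feature Extraction 11.5.1.1 (11.5 in the submitters' processing notes). The deposited value table held the same intensity values, each within 0.50% of the scanner value of its spot, with column medians of -1.44 (mirVana PARIS), -2.77 (exoRNeasy) and -1.51 (miRNeasy advanced). It is linear and not centred. Outlier spots were left out (1427, 1515 and 1474). A total gene signal of 0.1, which the software writes for an undetected miRNA, was taken as 0. Signals were averaged per probe. For ratios only, values under 1 were set to 1, log2 was taken and arrays were scaled to the 75th percentile. Of all miRNAs on the array, 153 list names matched and 3 did not.

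The miRNAs named are the 20 brightest, up to 5 per list, those detected on 1 array only, hairpins with both arms detected, the 8 largest seed families and those nearest the threshold. Other names, among them those listed as brighter on exoRNeasy, undetected list members and letter matches, were chosen after their values were seen. The members, lists and tests were chosen with earlier results of these data known. Sequences are from RefSeq (GRCm38.p6). The calling step, and shares from brightest-probe means, were run on simulated spots with a set noise level and cutoff. That run did not test the software's flag, the total gene signal or the calling of dim miRNAs. Alternatives covered detection rule, signal, background correction and scaling. Python 3.11.15, pandas 2.3.3, numpy 2.4.6, R 4.3.3 and limma 3.58.1 were used. The number of arrays, 1 per kit, limits the precision.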

Additional observations from a re-analysis of the deposited data

How the results depend on the processing

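miR-451a was first and miR-3963 second under each of the 7 other ways of computing signal, and the erythroid and red cell lists held the largest and second largest shares in each. Against 134 miRNAs detected and 50 on mirVana PARIS only, requiring every probe gave 75 and 30 (13 of the 50 remained), and the looser positive-and-significant flag gave 345 and 78 (7 remained), with 57.2% of the arm-named miRNAs on the 3p side in place of 43.1%. The software flag gave 161 and 50 (27 remained), and over 75% of spots gave 127 and 51 (45 remained). Of the original 50, 19 reached the lowest detected level elsewhere. Lower bounds above 1-fold against both other arrays were 0 after scaling, 18 without scaling, 12 when the labelling spike-in set the scale and 32 when the 75th percentile of every probe did. The share of the 10 brightest (73.8%) became 71.8% from each miRNA's brightest probe, 73.3% both from summed probe means and from the deposited value table, 72.8% with the placeholder kept, 63.0% from pixel medians and 58.5% after normexp. The share of miRNAs on mirVana PARIS only (2.36%) became 7.66% from pixel medians and 8.48% after normexp. The erythroid share (54.0%) became 48.7% from the brightest probe, 53.2% with the placeholder, 42.4% from pixel medians and 39.3% after normexp, and 2, 4 and 5 miRNAs were needed for 50% of the signal from the brightest probe, pixel medians and normexp. The AGCAGCA family held 5.65% from the brightest probe (5.10%). The 3p arm's part of arm-named signal was 47.6% from pixel medians and 48.3% after normexp (49.3%). Pixel medians and normexp both read each miRNA's brightest probe. The former covered detected miRNAs, while normexp covered those with the software flag and added 50 units to every spot. The placeholder, normexp on pixel medians and value table settings were chosen after seeing the data, and normexp on pixel means was not run. Dim miRNAs within a few units of negative controls limit what the arrays can order. No paired analysis was possible because each kit has 1 array and no result comes from a test; no array could be left out for the same reason.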
